A study of Mus musculus with 8 samples.

Results

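The response of BV-2 cells to lipopolysaccharide (LPS) was measured on 4 of the 8 arrays of the series, chosen by their sample titles: 2 arrays of untreated cells (control) and 2 of cells kept with LPS at 1 µg/mL for 24 h, neither of them exposed to the mushroom extract (HF) tested on the other 4 arrays. BV-2 is a mouse microglial line immortalised by a retrovirus carrying oncogenes, grown in serum with added insulin and antibiotics. It is 1 line, so the values describe that line and not microglia in the brain. The study calls the arrays of a group biological replicates, without saying whether they came from separate cultures, so the errors and p-values may cover only technical spread. Total RNA was labelled with the dye Cy3 and hybridised to single-colour Agilent mouse arrays. Levels below are log2 signals relative to the array's 75th percentile, so that 0 is the level that 75% of probes did not exceed. Levels of different genes are not compared with each other, since probes differ in how strongly they bind.

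LPS is a glycolipid from the surface of Gram-negative bacteria. In macrophages and microglia it is carried to CD14 and then to the Toll-like receptor 4 complex, which signals through MYD88 to NF-kB and MAP kinases, and through TICAM1 to interferon regulatory factors and type I interferon. The first branch is known for cytokines, chemokines and its own inhibitors, and the second for antiviral genes that follow through the interferon receptor. Metabolism and cell identity genes are also known to be rewired over a day of exposure.

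Control replicate 1 was unevenly hybridised: probes printed several times varied by 48.9% (coefficient of variation) there and by 4.16% to 4.59% on the other 3 arrays compared. Between replicates, the SD of the difference over genes was 0.99 log2 for control and 0.28 for LPS. The 75th percentile of signal was between 247 and 286, and 47.7% to 54.8% of 55681 probes were well above background. Each value was therefore also taken against control replicate 2 alone, and after a spatial correction that masks spots dimmed more than 4-fold (called dimmed below). Arrays with LPS lay in slide columns 3 and 4 and those without in columns 1 and 2, so column and LPS cannot be told apart.

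Of 22460 genes tested with limma, 2502 passed a Benjamini-Hochberg adjusted p under 0.05 (11.1% of all tested), 1078 higher with LPS (4.80%) and 1424 lower (6.34%). Over all genes the median difference was -0.08 log2, and 0.27 under median scaling, which gave 572 higher and 262 lower, while quantile normalization gave 1183 and 1076. In all 2502 genes both LPS arrays lay beyond both control arrays, as they did in 57.1% of all genes tested, which fixes the same direction against control replicate 2 alone. Of the 2502, 2403 also passed without control replicate 1, a fit in which 20.3% of all genes passed. With both controls, and genes below background in 1 group counted at their lower bound, 73 genes rose and 21 fell at least 8-fold. At least 32-fold, 19 rose and 1 fell. Fits without control replicate 1 and without control replicate 2 took their spread from the same arrays of the other groups and differed in the control level. The number of calls depended on both the spread and that level. It was 184 without LPS replicate 1, 175 without LPS replicate 2, and 4570 and 11823 without control replicate 1 and 2. It was 1112 without either HF array and 1109 without either LPS+HF array, since all 8 arrays share 1 spread, and 150 genes (106 higher, 44 lower) passed in each of these 8 fits. Those are called stable below, and counts given without either LPS array hold for each of them left out in turn. Every error is an SE from the fit over all 8 arrays, with 2 arrays per group. A gene is called measured in both groups if at least 1 array of each was well above background. List members are called measured if they were tested, that is, well above background on both arrays of any group of the series.

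Among genes measured in both groups the largest rise was in Marco, a scavenger receptor that binds bacteria, which stood at 1.06 and 1.12 on the control arrays and at 8.93 and 9.05 with LPS. Lcn2, which captures bacterial iron carriers, stood at -0.88 and -1.14 without and at 6.66 and 6.64 with LPS. In both genes the arrays of a group lay within 0.3 log2 of each other and the groups were far apart, by 7.90 ± 0.13 log2 for Marco (adjusted p = 2.8e-05) and 7.66 ± 0.20 for Lcn2 (adjusted p = 0.00012). Saa3, an acute-phase apolipoprotein made by macrophages, went from 2.27 and 2.69 to 9.35 and 9.40, a 119-fold rise (adjusted p = 0.00019). Cfb, the protease of the alternative complement pathway, was at -2.23 and -1.86 and then at 4.91 and 4.86. Gbp2, an interferon-induced GTPase that attacks vacuoles of pathogens, rose from -2.81 and -2.89 to 3.85 and 3.96. The T-cell attractant Ccl5 rose from 1.56 and 1.59 to 8.08 and 8.20. These rises of Cfb, Gbp2 and Ccl5 came to 122-fold, 108-fold and 94.4-fold (adjusted p = 0.00037, 0.00037 and 0.00042), and all 6 genes were stable.

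The promoters of Marco, Il6, Saa3 and Gbp2 are shown because, in order of the fitted difference, they lead the named rises whose RefSeq promoter (250 bases before to 50 after the start, GRCm38.p6) held the letters of an NF-kB or an interferon-response motif. The place of Il6 rests on control levels that were not well above background, and by lower bounds alone it would stand behind Acod1. Capitals mark the match. In Marco (chr1:120504975-120505274, minus strand) an NF-kB match begins 29 bases before the start. In Il6 (chr5:30012864-30013163, plus strand) overlapping NF-kB matches on both strands begin 44 and 43 bases before it. In Saa3 (chr7:46715627-46715926, minus strand) an interferon-response match begins 125 bases before the start. In Gbp2 (chr3:142620413-142620712, plus strand) an interferon-response match begins 59 bases before the start and an NF-kB match 7 bases after it.
Marco: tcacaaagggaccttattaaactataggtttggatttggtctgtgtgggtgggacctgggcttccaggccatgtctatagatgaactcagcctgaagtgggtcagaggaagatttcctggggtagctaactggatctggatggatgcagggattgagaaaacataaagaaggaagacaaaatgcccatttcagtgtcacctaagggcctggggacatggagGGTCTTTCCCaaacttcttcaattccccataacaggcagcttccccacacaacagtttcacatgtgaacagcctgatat
Il6: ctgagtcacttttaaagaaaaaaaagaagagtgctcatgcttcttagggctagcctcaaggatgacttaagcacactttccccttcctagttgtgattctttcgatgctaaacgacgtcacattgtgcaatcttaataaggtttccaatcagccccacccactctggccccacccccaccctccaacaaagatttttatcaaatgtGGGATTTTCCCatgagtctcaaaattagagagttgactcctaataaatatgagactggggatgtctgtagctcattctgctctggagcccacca
Saa3: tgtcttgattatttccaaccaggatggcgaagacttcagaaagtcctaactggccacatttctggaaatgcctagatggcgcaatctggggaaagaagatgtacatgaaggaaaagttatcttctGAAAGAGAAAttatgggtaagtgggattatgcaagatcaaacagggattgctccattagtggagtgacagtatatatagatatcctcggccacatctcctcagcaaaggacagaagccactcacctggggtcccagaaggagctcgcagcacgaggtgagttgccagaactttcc
Gbp2: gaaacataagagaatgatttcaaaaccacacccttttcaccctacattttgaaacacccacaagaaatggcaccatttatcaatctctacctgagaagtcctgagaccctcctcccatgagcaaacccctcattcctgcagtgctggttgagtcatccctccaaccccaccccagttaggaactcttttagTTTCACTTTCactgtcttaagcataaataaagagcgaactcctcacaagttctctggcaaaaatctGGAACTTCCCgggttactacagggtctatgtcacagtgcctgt

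Over all tested genes, 11067 matched a promoter in the RefSeq table, among them 666 that rose and 795 that fell. The NF-kB pattern, GGGA then any 4 bases then CC, searched on both strands, was in the promoters of 28.8% of all these genes, of 31.7% of those that rose and of 29.9% of those that fell, so this loose pattern was nearly as common in each set. A narrower NF-kB pattern, GGGA then any base then TTTCC, a subset of the first, was in 0.533% of all, 1.502% of risen and 0.126% of fallen genes (10 and 1 genes). For the interferon-response pattern, GAAA then any 2 bases then GAAA, the shares were 3.88%, 9.01% and 3.02%, and 13.5% of 155 genes that rose and 4.88% of 82 that fell at least 4-fold by the fitted difference. AP-1 letters, TGA then any base then TCA, were in 6.68% of all, 10.7% of risen and 8.43% of fallen genes, and in 19.4% and 9.76% of those that rose and fell at least 4-fold. TATAAA, read on both strands, was in 10.4%, 10.96% and 10.3%, and in 21.3% and 13.4% of those up and down at least 4-fold. With genes below background counted at their lower bound, the shares of the 141 genes up at least 4-fold were 14.9%, 21.3% and 21.99% for the interferon-response, AP-1 and TATA letters, and those of the 61 genes down were 4.92%, 9.84% and 13.1%. Some named genes held several patterns: the promoter of Cxcl10 held the loose NF-kB, the interferon-response and the AP-1 letters, while those of Lcn2, Saa1, Traf1 and Spic held none of the 5 patterns. A match is a run of letters and not a measured binding site.

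**Figure D1:**
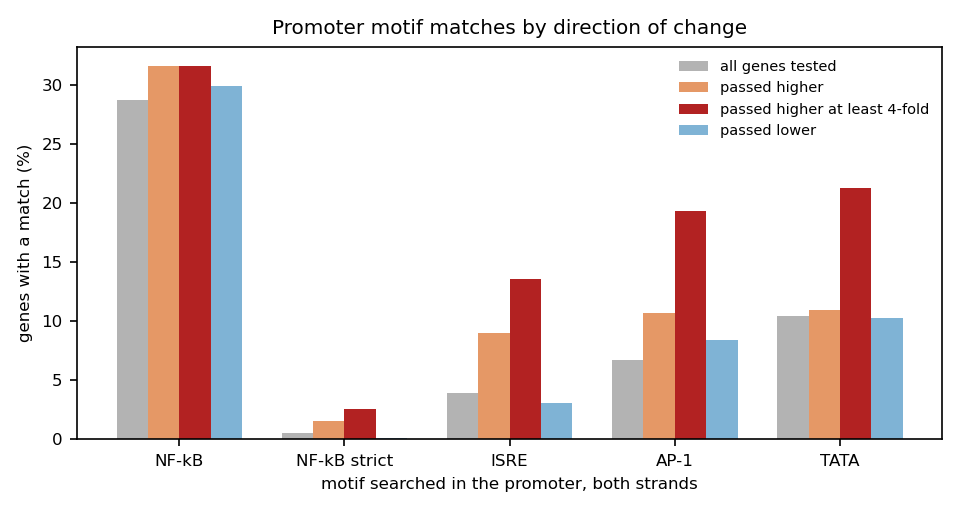
Share of genes (%, bars from 0) whose RefSeq promoter holds each of 5 motif patterns on either strand, for all genes tested, genes that passed higher, genes higher at least 4-fold (by the fitted difference) and genes that passed lower. The loose NF-kB bars are nearly level at 28.8% to 31.7%, while the ISRE (interferon-response), AP-1 and TATA bars are tallest for genes up at least 4-fold, at 13.5%, 19.4% and 21.3%.

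Further rises came from enzymes and transcription factors. Acod1, which makes the antibacterial metabolite itaconate, was at 1.89 and 2.18 on the control arrays and at 7.90 and 8.07 with LPS. The interferon-induced chemokine Cxcl10 went from -0.10 and -0.31 to 5.49 and 5.66. Spic, a transcription factor of iron-recycling macrophages, rose from -2.41 and -2.59 to 2.69 and 2.87. Traf1, an adaptor of tumour necrosis factor receptors, rose from -1.86 and -2.17 to 3.14 and 3.24. Their rises were 61.9-fold, 55.2-fold, 38.9-fold and 36.9-fold (adjusted p = 0.00012, 0.00012, 0.00061 and 0.00037) and all were stable. Saa1 rose 65.8-fold (adjusted p = 0.00032), though its close relatives may share its probe, which was not tested. Oasl2, an antiviral protein, was the exception in quality: its spot was dimmed on control replicate 1, where it read -2.06 against 1.73 on control replicate 2, and 5.09 and 5.15 with LPS. Its rise was 5.29 ± 1.12 log2 against both controls (adjusted p = 0.036) but 3.39 against control replicate 2 alone, and it passed in 2 of the 8 fits without 1 array.

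Several genes were not well above background in untreated cells, so only a lower bound of their rise was measured. On each control array it was taken against the gene's reading or the lowest signal above background, whichever was higher. Il1b, the cytokine interleukin 1 beta, was at 1.76 and 2.17 with LPS, at least 62.8-fold higher (adjusted p = 0.00037). Il6, which drives the acute-phase response, was at 1.16 and 1.40, at least 56.3-fold higher (adjusted p = 0.00016). Batf, an AP-1 partner factor of activated leukocytes, was at least 43.2-fold higher, and Slamf7, a self-ligand receptor of activated macrophages, at least 42.2-fold. Unc93a, a membrane protein related to the Toll-like receptor chaperone UNC93B1, was at least 37.1-fold higher. Ccr7, the receptor that leads dendritic cells to lymph nodes, was at least 30.8-fold higher. All 6 were stable.

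Among genes measured in both groups the deepest fall was in Arg1, the arginase of alternatively activated macrophages, which stood at 4.75 and 4.87 in untreated cells and at -2.48 and -2.52 with LPS. This was a 159-fold fall (log2 -7.31 ± 0.42, adjusted p = 0.0011), with the arrays of each group within 0.2 log2 of each other. Apold1, an apolipoprotein-like early response protein of endothelium, fell from 1.64 and 1.66 to -2.70 and -2.90. Cd2, an adhesion receptor best known in T cells, fell from -0.11 and -0.33 to -4.18 and -4.36. The eosinophil attractant Ccl24, another marker of alternative activation, fell from 2.24 and 1.25 to -2.44 and -1.90. Ocstamp, which is needed for fusion of osteoclasts and macrophages, fell from 4.51 and 4.0 to 0.56 and 0.70. The falls were 21.8-fold, 16.6-fold, 15.1-fold and 12.3-fold (adjusted p = 0.00037, 0.00037, 0.0037 and 0.0029), and with Arg1 all 5 were stable. Gpr183, the oxysterol receptor that steers immune cells, fell by 3.52 log2. Cytip, which binds a regulator of leukocyte adhesion, fell 11.3-fold, and the peroxisomal transporter Abcd2 fell 8.67-fold, all 3 of them stable. Cd2 and Abcd2 were well above background on only 1 LPS array.

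Some other deep falls were smaller against control replicate 2 alone. Bnip3, a mitochondrial protein of hypoxia and mitophagy, was at 8.54 and 7.30 in control and at 4.56 and 4.49 with LPS. Its fall was 3.39 log2 with both controls and -2.77 with control replicate 2 alone. Egr2, a transcription factor of alternative activation, fell from 4.14 and 2.72 to 0.17 and 0.37 (log2 -3.15, and -2.45 with control replicate 2 alone). For Gabbr2, a subunit of the GABA-B receptor, control replicate 1 read 0.96 and control replicate 2 -1.89, and the fall was 3.55 ± 0.84 log2 (adjusted p = 0.049) but -2.12 against control replicate 2. Serpinf2, the plasmin inhibitor, fell 8.74-fold (adjusted p = 0.019), or 7.61-fold against control replicate 2, with LPS arrays at -3.63 and -5.07. In all 4 genes both LPS arrays lay below both control arrays, though Serpinf2 was well above background on only 1 LPS array.

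Some genes were lost below background with LPS, so that their fall is a lower bound. Il1r2, the decoy receptor that traps interleukin 1, fell at least 10.9-fold from -0.86 and -0.63. Fxyd4, a regulator of the sodium pump, fell at least 11.1-fold. Sema4g, a membrane semaphorin, fell at least 9.49-fold from -0.32 and -1.56. These 3 were stable, and the bound of Sema4g was 6.16-fold against control replicate 2 alone. Epha2, an ephrin receptor, fell at least 12.5-fold, or at least 6.98-fold against control replicate 2 alone. Cers4, which makes ceramide, was at least 9.03-fold lower. F13a1, a clotting factor subunit typical of alternatively activated macrophages, fell at least 5.73-fold, but its spot was dimmed on control replicate 1 (-3.06 there, -0.28 on control replicate 2), and against control replicate 2 alone the bound was 14.996-fold.

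**Figure D2:**
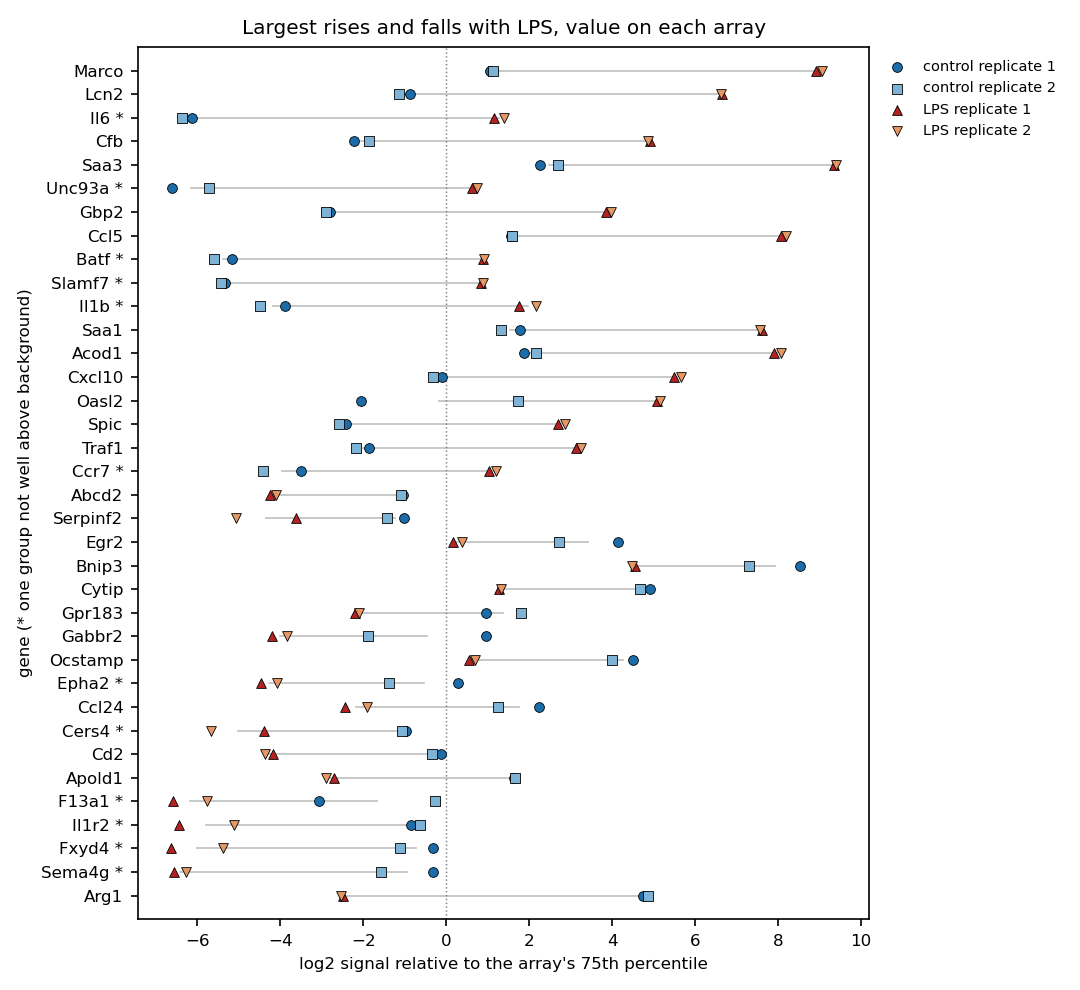
Values of the 18 largest rises and 18 largest falls on each of the 4 arrays, as log2 signal relative to the array's 75th percentile; grey lines join the group means and stars mark genes of which 1 group was not well above background. The arrays of a group lie together for most genes, while control replicate 1 stands apart from control replicate 2 for Oasl2, Gabbr2 and F13a1.

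Among 16 measured genes of LPS recognition, 1 rose, 1 fell and 14 did not pass (median -0.22 log2, against -0.08 over all genes tested), a share of 12.5% near the 11.1% of all genes. Without control replicate 1, 3 rose and 4 fell, and after the spatial correction 4 rose and 5 fell. Cd14, which hands LPS to the receptor, rose from 3.35 and 3.19 to 5.12 and 5.26, a stable 3.78-fold rise (adjusted p = 0.0027). Cd180, a receptor-like regulator of TLR4 signalling, fell 2.52-fold (adjusted p = 0.038). Tlr4 did not pass: it read 2.34 and 0.80 in control and 0.20 and 0.27 with LPS, so that its difference was -1.33 log2 with both controls (adjusted p = 0.12) and -0.56 with control replicate 2. Myd88 had a difference of -0.18 ± 0.14 log2 (adjusted p = 0.41).

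Of 18 measured sensors of other microbial products (Toll-like and other pattern receptors), 10 rose and 2 fell, with a median of 0.93 log2, and 2 passed without either LPS array. Fpr2, a receptor of bacterial formyl peptides, was dim in untreated cells and rose at least 12.3-fold, and its relative Fpr1 at least 5.77-fold. Against control replicate 2 alone these bounds were 9.36-fold and 4.40-fold. Zbp1, a sensor of left-handed nucleic acid, rose 6.36-fold, and Clec4e, a lectin for mycobacterial glycolipid, rose 4.47-fold from 4.33 and 4.40 to 6.47 and 6.57. Fpr2 and Clec4e were stable. The endosomal RNA sensors went the other way: Tlr7 fell 2.46-fold (adjusted p = 0.032), and Tlr13, which reads bacterial ribosomal RNA, fell by 2.16 log2 against both controls and was at -1.46 against control replicate 2.

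NF-kB subunits and inhibitors rose in 8 of 15 measured cases and fell in none, with a median of 1.58 log2; 3 passed without LPS replicate 1 and 4 without LPS replicate 2. Nfkbia, the inhibitor that holds NF-kB in the cytoplasm and is its own target, rose from 3.22 and 3.25 to 5.72 and 5.88, or 5.92-fold (adjusted p = 0.0009). Nfkbiz, a nuclear co-activator needed for Il6 and Lcn2, rose from -2.99 and -2.95 to 0.47 and 0.41, or 10.6-fold (adjusted p = 0.00037). Bcl3, another nuclear member, rose 17.7-fold, with a dimmed spot on control replicate 1 and a log2 difference of 3.50 after the correction. These 3 were stable. Ikbke, a kinase of the interferon branch, rose 4.04-fold and the inhibitor Nfkbie 3.45-fold.

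Of 20 measured genes of negative feedback, 7 rose and 1 fell (median 0.21 log2, and 0.77 against control replicate 2), and 2 and 1 passed without LPS replicate 1 and 2. Il1rn, the natural antagonist of interleukin 1, rose from -2.92 and -3.06 to 0.64 and 0.48, a stable 11.7-fold rise (adjusted p = 0.0011). Tnfaip3 (A20), which removes ubiquitin from signalling complexes, rose 5.59-fold. Irak3, a decoy kinase, rose 5.45-fold and Zc3h12a, which cuts cytokine messenger RNAs, 3.69-fold. The STAT5 inhibitor Cish fell 2.01-fold (adjusted p = 0.023). Among 12 measured MAP kinase phosphatases 3 rose, Dusp14 by 4.36-fold, Dusp16 by 2.53-fold and Dusp10 by 1.87-fold, and the list's median was -0.02 log2; none of the 3 passed without either LPS array.

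Of 17 measured inflammatory cytokines, 7 rose and none fell, with a median of 0.71 log2, and 5 of the 7 were stable. Il1a, the cell-associated interleukin 1, went from -3.52 and -4.20 to 0.97 and 1.26, a 31.4-fold rise (adjusted p = 0.0021). It was well above background on only 1 control array. Tnfsf15, a ligand of death receptor 3, went from -3.48 and -3.86 to 0.07 and 0.19, or 13.9-fold (adjusted p = 0.00051). Tnf, tumour necrosis factor, rose from 0.43 and 0.44 to 3.15 and 3.05, or 6.32-fold (adjusted p = 0.00051). The controls of Tnf lay within 0.02 log2 of each other. Il10, the anti-inflammatory cytokine, is counted among the 17 but was not well above background on any of the 4 arrays, so no change could be measured. Il12a, Il23a, Csf2, Csf3 and Lif were below background on all 4 arrays, and Ifnb1 was above it on LPS replicate 1 only, so none of these was tested.

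Cytokine receptors mostly did not pass: of 28 measured, 2 rose and 4 fell (1 and 1 without either LPS array). Fas, the death receptor, rose from -3.43 and -3.84 to 0.87 and 0.83, a stable 22.4-fold rise (adjusted p = 0.00037). It was well above background on only 1 control array. Cd40, the receptor of T-cell help, rose 2.71-fold. Besides Il1r2, receptors for interleukin 6 and interleukin 18 were lower: Il6ra fell 2.72-fold (adjusted p = 0.03), and Il18rap at least 1.38-fold, having been measured at -4.03 and -3.41 in control only. Falls of the decoy Il1r2 stood beside the rises of its ligands Il1a and Il1b and of the antagonist Il1rn on the same arrays.

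Among 11 measured CC chemokines 5 rose and 2 fell (3 and 1 without LPS replicate 1, 2 and 1 without LPS replicate 2), and among 6 measured CXC chemokines 2 rose and 1 fell. Ccl12, a monocyte attractant, rose from -2.42 and -2.05 to 1.05 and 1.16, a stable 10.1-fold rise (adjusted p = 0.0011). Ccl9 rose 5.22-fold. Ccl8 and Cxcl2, attractants of monocytes and neutrophils, were dim in control and rose at least 2.95-fold and 2.54-fold. Their bounds were 2.25-fold and 1.94-fold against control replicate 2 alone. Ccl6 fell 2.52-fold and Pf4, a platelet chemokine also made by macrophages, fell 1.83-fold. Cxcl1, Cxcl3, Ccl17 and Ccl22 were below background on all 4 arrays. Of 16 measured chemoattractant receptors, 5 rose and 3 fell (3 and 1 without either LPS array). Ccrl2, which presents chemerin, rose 6.52-fold. The fractalkine receptor Cx3cr1, a microglial marker, went from -2.12 and -1.92 to below background, a stable fall of at least 4.48-fold (adjusted p = 0.0014). The neutrophil chemokine receptor Cxcr2 fell 5.04-fold, and Cxcr4, the receptor of Cxcl12, fell 2.71-fold. Cxcr2 was well above background on only 1 LPS array.

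The interferon programme was the list with the highest median. Of 33 measured interferon-stimulated antiviral genes, 24 rose, none fell and 9 did not pass, with a median of 1.88 log2 (1.85 against control replicate 2). Rsad2 (viperin), which makes a chain-terminating nucleotide, rose from 0.49 and 1.17 to 5.34 and 5.57, or 24.6-fold (adjusted p = 0.0012). Ifit3, of a family that binds viral RNA, rose 28.7-fold (adjusted p = 0.0011); its spot was dimmed on control replicate 1 and its log2 difference after the correction was 4.75. Both were stable. Other antiviral genes had dimmed spots on control replicate 1. Oasl1 read 3.03 there and 5.51 on control replicate 2, so that its rise of 4.0 log2 became 2.76 against control replicate 2. The exonuclease Isg20 read 0.55 and 1.72, and its rise of 3.34 log2 became 2.75. Of the 33, 5 passed without LPS replicate 1 and 4 without LPS replicate 2.

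Interferon-induced GTPases rose in 5 of 13 measured cases and fell in none, and 4 rose without either LPS array. The guanylate-binding proteins Gbp3, Gbp5 and Gbp7, relatives of Gbp2, rose 26.3-fold, 12.1-fold and at least 10.4-fold (adjusted p = 0.0015, 0.0015 and 0.0027) and were stable. Gbp3 went from -1.03 and -1.68 to 3.28 and 3.44. The bound of Gbp7 was 7.96-fold against control replicate 2 alone. The only immunity-related GTPase of the list to pass was Igtp, by 1.83-fold (adjusted p = 0.049), and it did not pass without control replicate 1 (adjusted p = 0.062). Of 12 measured STAT and interferon regulatory factors, 2 rose and 1 fell; 5 rose and 1 fell without control replicate 1, and none passed without either LPS array. Irf7, the master factor of interferon production, rose from 0.79 and 1.95 to 4.52 and 4.52, or 8.89-fold (adjusted p = 0.0073), with a dimmed spot on control replicate 1 and 2.50 log2 after the correction. Stat5a rose 1.68-fold and Stat6, which carries the interleukin 4 signal, fell 2.0-fold (adjusted p = 0.019).

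Antigen presentation moved in the class I pathway. Of 19 measured class I genes, 8 rose, none fell and 11 did not pass, with a median of 0.85 log2; none of the 8 passed without either LPS array. Tap1, the peptide transporter, rose 3.76-fold from 0.50 and 1.20 to 2.85 and 2.67, and its docking partner Tapbp 3.17-fold. H2-D1, a class I heavy chain whose relatives may share its probe, rose 2.79-fold with a dimmed spot on control replicate 1 (1.07 log2 after the correction). B2m, the shared light chain, did not pass (log2 0.85, adjusted p = 0.24; 0.29 against control replicate 2). Of 8 measured class II genes none passed in limma (1 at an unadjusted p under 0.05), and their median was -0.04 log2. H2-Aa, H2-Eb1 and the class II regulator Ciita were below background on all 4 arrays. Among 19 measured co-stimulatory and checkpoint molecules 7 rose and 1 fell, and 1 rose without either LPS array. Cd274 (PD-L1), which restrains T cells, rose from 0.89 and 0.31 to 2.98 and 3.26, or 5.73-fold (adjusted p = 0.0053). Cd69, an early activation marker, rose at least 3.17-fold (2.42-fold against control replicate 2 alone), while Havcr2 (TIM-3) fell 2.74-fold (adjusted p = 0.0069).

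Acute-phase and complement genes included 4 of the largest rises. Of 22 measured, 10 rose and 3 fell, with a median of 0.75 log2, and 7 of the 13 were stable. Saa2, a near copy of Saa1, was dim in control and rose at least 8.23-fold, or at least 6.28-fold against control replicate 2 alone. The falls were in complement. C1qc, of the first classical component, fell 1.76-fold, and Cfp (properdin) 1.48-fold. Cfp had the opposite sign under the normexp background correction (0.02 log2).

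Scavenger and phagocytic receptors went both ways. Of 26 measured, 5 rose and 3 fell, with a median of -0.12 log2, and 2 rose without either LPS array. Msr1, the class A scavenger receptor related to Marco, rose from -2.47 and -2.33 to 0.59 and 0.74, or 8.37-fold (adjusted p = 0.0049). Stab1, a receptor for modified lipoprotein and dying cells, rose from -0.81 and -0.44 to 1.53 and 1.53, a stable 4.46-fold rise. Mrc1, the mannose receptor, fell 4.81-fold from -0.16 and 0.26 to -2.25 and -2.18 (adjusted p = 0.0037). Fcgr3, a receptor of antibody, fell 2.77-fold and Trem2, a lipid receptor of microglia, 1.81-fold.

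Arginine was the substrate of opposite changes. Nos2, the inducible nitric oxide synthase that competes with arginase, rose from 1.91 and 1.93 to 4.67 and 4.88, a stable 7.25-fold rise (adjusted p = 0.0019), on the arrays where Arg1 fell. Ass1, which rebuilds arginine from citrulline, rose 2.91-fold, and Gch1, which makes the synthase's cofactor, 1.52-fold (adjusted p = 0.04). Qdpr, which recycles that cofactor, fell 1.52-fold (adjusted p = 0.035). Of the 16 measured genes of this list, 3 rose and 2 fell (1 and 1 without either LPS array). Among 17 measured markers of alternative activation, 9 fell and 2 rose, with a median of -0.67 log2; 2 fell and 1 rose without either LPS array. Myc, dim in control, rose at least 3.87-fold, and Stab1 was the other rise. Besides Arg1, Ccl24, F13a1, Egr2 and Mrc1, the lipid receptor Pparg fell 1.59-fold. Retnla, Chil4 and Cd163 were below background on all 4 arrays.

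Glycolytic and hypoxia-response genes fell in 13 of 27 measured cases and rose in 2, with a median of -0.58 log2 (-0.79 against control replicate 2), and 1 fell without either LPS array. Ndrg1, induced by hypoxia and growth arrest, fell from 6.12 and 6.34 to 3.67 and 3.54, a stable 6.16-fold fall (adjusted p = 0.00099). Egln1, the oxygen sensor that marks HIF1A for decay, fell 5.46-fold, and the vasodilator Adm at least 2.23-fold. The enzyme Gpi1 fell 3.28-fold, although its probes disagreed in sign. The 2 rises were Pfkfb3, which makes the activator of glycolysis (2.21-fold, adjusted p = 0.01), and Hif1a itself, from 1.55 and 1.79 to 2.57 and 2.65 (1.92-fold, adjusted p = 0.018). In the tricarboxylic acid cycle 2 of 23 measured genes rose and 1 fell: besides Acod1, Ogdh rose 1.63-fold and Suclg1 fell 1.62-fold. Subunits of oxidative phosphorylation had a median of -0.52 log2, against -0.08 over all genes tested. Of 32 measured 2 fell, a share of 6.25% near the 6.34% of all genes that passed lower. These were Cox5b by 1.62-fold and Ndufb5 by 1.47-fold, and neither was stable. After the spatial correction 20 of the 32 fell, in a fit in which 3646 of 22460 genes fell. Against control replicate 2 alone the list's median was -0.41 log2, and that of all genes -0.06.

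Antioxidant genes rose more often than they fell. Of 31 measured genes of the NRF2, glutathione and haem group, 14 rose and 2 fell, with a median of 0.78 log2, and 1 rose without either LPS array. Slc7a11, the cystine importer that feeds glutathione, rose from -3.41 and -3.15 to 0.53 and 0.71, a stable rise of 3.90 log2 (adjusted p = 0.00042). Hmox1, which breaks down haem, rose 3.52-fold from 5.47 and 5.61 to 7.42 and 7.30, and Gclm, a subunit of the first enzyme of glutathione synthesis, 3.03-fold. Sod2, the mitochondrial superoxide dismutase, and the thioredoxin reductase Txnrd1 had dimmed spots on control replicate 1: their rises of 3.57 and 2.40 log2 were 2.31 and 1.51 against control replicate 2. Mt1, a metal-binding protein, fell 1.86-fold, and Blvra, which acts after Hmox1 on biliverdin, fell by 1.51 log2. Of 8 measured oxidase genes 2 rose and 1 fell: the catalytic subunit Cybb rose 3.37-fold and the activating GTPase Rac2 2.75-fold.

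In prostaglandin and leukotriene synthesis, the cyclooxygenases moved in opposite directions. Ptgs2, the inducible one, rose from -0.71 and -1.14 to 0.63 and 0.92 (3.24-fold, adjusted p = 0.0092). Ptgs1, the constitutive one, fell from 4.51 and 4.69 to 2.53 and 2.54, a stable 4.19-fold fall (adjusted p = 0.0026). Pla2g7, which degrades platelet-activating factor, was dim in control and rose at least 16.1-fold, and prostacyclin synthase (Ptgis) fell 2.02-fold. Of 16 measured genes in the list, these 2 rises and 2 falls were the only ones that passed.

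Of 16 measured inflammasome genes, 5 rose and none fell, at a median of 0.01 log2, and 1 rose without either LPS array. Casp4, the cytosolic LPS receptor known as caspase 11 in mice, rose from 2.17 and 2.83 to 5.13 and 5.02, or 5.96-fold (adjusted p = 0.0041). Casp1 rose 2.35-fold and Ninj1, which ruptures the membrane in dying cells, 2.20-fold. Of 14 measured BCL-2 family genes the protective Bcl2a1d, whose near-identical copies may share the probe, rose 3.82-fold and the death-promoting Bcl2l11 2.27-fold. This was a share of 14.3%, near the 11.1% of all genes. In the integrated stress response 9 of 21 measured genes rose and 1 fell, and 2 rose without either LPS array. Ddit3 (CHOP), a transcription factor of stressed cells, rose from 0.91 and 0.49 to 4.36 and 4.26, a stable 12.2-fold rise (adjusted p = 0.0013), and its target Trib3 rose 4.39-fold. Ddit4, an inhibitor of mTORC1 that hypoxia also induces, fell by 1.62 log2 (adjusted p = 0.019). Of 20 measured genes of the unfolded protein response, 3 rose and 2 fell, and none passed without either LPS array. The chaperone Hyou1 rose 1.87-fold, while the sensor Atf6 fell 1.94-fold and Canx 1.77-fold. Atf6 and Canx had the opposite sign under the normexp background correction (0.05 and 0.41 log2).

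Sterol and fatty acid synthesis went both ways, with 1 of 30 measured genes higher and 5 lower. Mvd, of the mevalonate pathway, rose 3.16-fold, and Fasn, the fatty acid synthase, fell from -0.07 and -0.31 to -1.61 and -1.52, or 2.59-fold (adjusted p = 0.0055). Idi1 fell 1.88-fold and Stard4, a sterol carrier, 1.96-fold. Ebp fell 1.68-fold, with the opposite sign under normexp (0.23 log2). Of 23 measured genes of cholesterol efflux and lipid storage 2 rose and 3 fell: Nr1h3, the oxysterol-sensing receptor, rose 1.88-fold and Apoe, a lipid carrier of microglia, fell 1.82-fold from 9.25 and 9.23 to 8.43 and 8.32 (adjusted p = 0.018). None of these sterol and lipid calls passed without either LPS array. Of 33 measured lysosomal genes 4 rose and none fell, with a median of 0.06 log2, and none of the 4 was stable. This was a share of 12.1%, beside 11.1% of all genes in either direction and 4.80% of all genes higher. Neu1 rose 1.91-fold and Psap 1.69-fold.

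Markers of the cell were read on the same arrays. All 12 pan-macrophage markers were measured; 2 rose, 1 fell, and their summed level was 897 and 868 in control and 799 and 790 with LPS, in multiples of the array's 75th percentile. Of 28 homeostatic microglial genes 24 were measured, 5 fell and none rose (median -0.48 log2; 1 fell without either LPS array), whereas Sall1, P2ry13 and Gpr34, which mark microglia in the brain, were below background on all 4 arrays. Entpd1, which degrades extracellular ATP, fell 3.76-fold and Tmem119 1.55-fold (adjusted p = 0.04). P2ry12, the ADP receptor of resting microglia, did not pass (log2 -0.72, adjusted p = 0.083). The list's median lay 0.03 log2 above that of all genes with the normexp correction. In bulk RNA, fewer cells with a transcript and less of it per cell cannot be told apart. Of other cell types, 3 of 8 astrocyte, 4 of 8 neuron, 6 of 8 oligodendrocyte, 5 of 7 endothelial, 1 of 7 fibroblast, 6 of 10 lymphocyte and 3 of 8 neutrophil markers were measured. Of these, Flt1 fell 2.78-fold, Lck rose 1.78-fold and Camp, dimmed on control replicate 1, rose 4.27-fold. Their lists' summed levels were 91.7 and 80.6 against 42.4 and 42.9 (endothelial), 7.52 and 8.49 against 10.9 and 10.8 (lymphocyte), and 6.04 and 6.53 against 9.05 and 7.51 (neutrophil). Tek, Cd3g, Ltf and S100a9 were below background on all 4 arrays, and the part of such cells in the results was not tested.

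Transcription factors of myeloid cells rose in 5 of 31 measured cases and fell in 4, and 2 rose without either LPS array. Id3, an inhibitor of helix-loop-helix factors, rose from -1.22 and -0.41 to 2.46 and 2.53, a stable 9.91-fold rise (adjusted p = 0.0034). Nr4a1, a nuclear receptor that limits inflammation, fell 3.13-fold and Klf2, which does the same, 1.80-fold. Genes of mitosis fell in 6 of 32 measured cases and rose in none, with a median of -0.53 log2; 14 fell without control replicate 1 and none without either LPS array. Kif20a, Cdc20 and Ube2c, of chromosome separation and its ubiquitin ligase, fell 2.21-fold, 2.15-fold and 2.11-fold (adjusted p = 0.016, 0.012 and 0.01), and Cdc20 went from 4.74 and 4.97 to 3.77 and 3.73. Of 36 measured genes of DNA replication none passed in limma (12 at an unadjusted p under 0.05), and their median was 0.18 log2 with both controls and -0.08 with control replicate 2 alone. Without control replicate 1, 2 of the 36 rose and 2 fell, and without control replicate 2 16 rose and 10 fell. Mcm4 showed how far 1 array could reach, reading 1.42 on a dimmed spot of control replicate 1 against 4.92, 4.94 and 4.95 on the other arrays. Nor did any of 27 ribosomal proteins or 14 common reference genes pass (6 and 4 at an unadjusted p under 0.05). Actb had a difference of -0.62 log2 (adjusted p = 0.1) and Gapdh of -0.14 (adjusted p = 0.64). Gapdh had 7 kept probes, with differences from -1.04 to -0.14 log2, and its brightest probe gave the smallest.

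**Figure D3:**
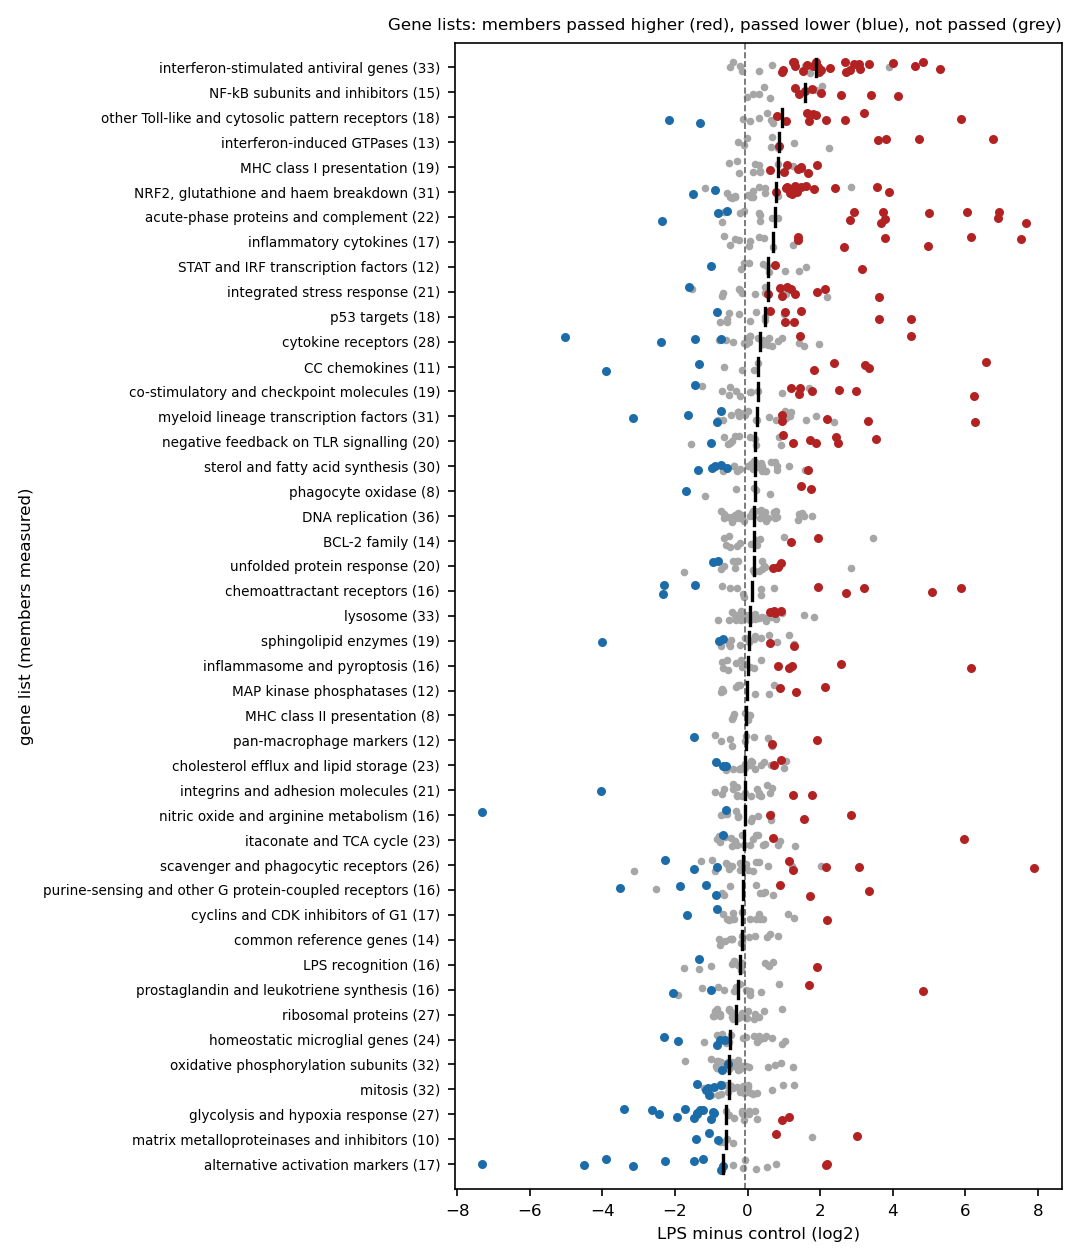
Log2 difference (LPS minus control) of each measured member of the lists with at least 8 measured genes, ordered by the list's median (black tick); red points passed higher, blue points passed lower, grey points did not pass, and the dashed line is the median of all genes tested (-0.08). Antiviral and NF-kB genes stand farthest right, with medians of 1.88 and 1.58, and markers of alternative activation farthest left, with -0.67.

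Of the 199 named genes that passed, 198 also passed without control replicate 1, Igtp being the exception. All 199 passed after the spatial correction, a fit in which 29.1% of all genes passed. So did 2456 of the 2502 genes that passed with both controls uncorrected. The correction starts from the same signals, so these passes are not separate support. Of the 199, 65 passed without LPS replicate 1 and 61 without LPS replicate 2.

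**Figure D4:**
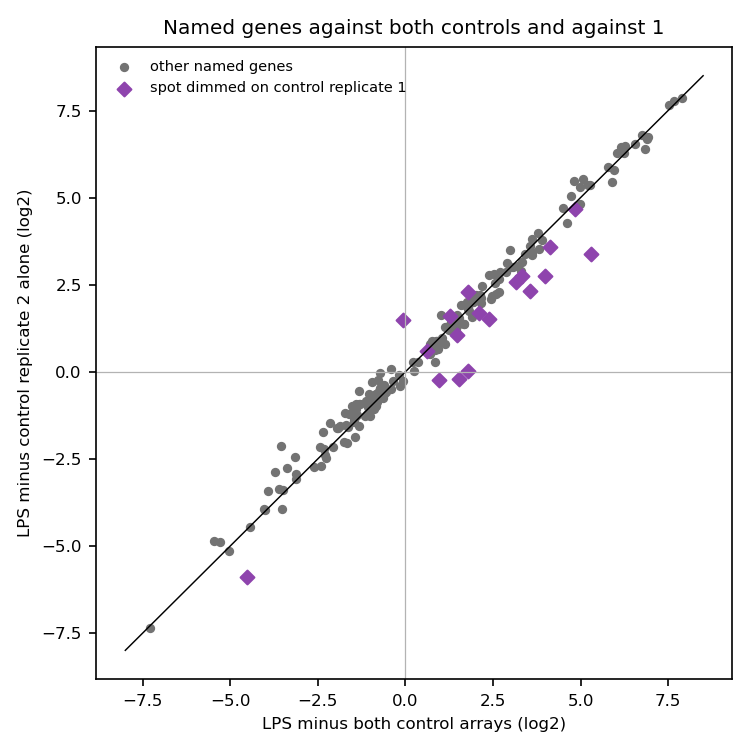
Log2 difference of LPS from both control arrays (horizontal axis) and from control replicate 2 alone (vertical axis) for the 223 named genes, as fitted also where a group was not well above background; the line marks equal values and diamonds are genes whose spot was dimmed on control replicate 1. Most points lie on the line, and diamonds such as Oasl2 (5.29 and 3.39) and Mcm4 (1.77 and 0.02) lie off it.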

How the data were processed

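Each scanner file gives the intensity of every spot, which the authors obtained with Agilent Feature Extraction 11.5.1.1; per the file headers, background was subtracted and trends across the array were corrected. The log2 values of the deposited matrix, made by the authors and centred on each probe's median, were used as an alternative. Here the signals were converted to log2, averaged over unflagged spots of a probe and expressed relative to the 75th percentile of the array. A filter removed probes that no group had well above background on both its arrays, and the brightest probe over the 8 arrays stood for its gene. Of 55681 probes, 28026 (50.3%) had a RefSeq symbol. Group means of all 4 groups were fitted with limma 3.58.1 in R 4.3.3, two-sided, with 4 residual and 2.04 prior degrees of freedom, and p-values were adjusted over all 22460 genes.

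The members and gene lists were chosen with earlier results of these data known. The genes named are the 12 largest rises and 12 largest falls measured in both groups, and the 6 largest bounded rises and falls, that passed, separated the arrays and differed at least 2-fold from control replicate 2, plus up to 5 passed members per list (1 in the opposite direction, or 2 as values where under 2 passed) and 17 genes always given. Alternatives were other scalings, a normexp correction with an offset of 50, the dim-probe filter, a mean over probes, a trended variance, a 2-fold threshold, a replicate block, only the 4 arrays, each array left out, array weights, a spatial correction in windows of 30 rows and 15 columns, and, chosen after seeing the data, a fit without control replicate 1 and HF replicate 1, which the scanner software marked, and counts of large folds with dim genes at their lower bound. All arrays came from 1 slide and 1 scan, and their number limits the precision. The fit was also run on simulated data, with independent noise at each group's SD, the same for every gene. These data held no uneven hybridisation, so they could not show how the fit deals with it. Plots used Python 3.11.15 and matplotlib 3.10.9. Values of some list members are not reported here.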

Additional observations from a re-analysis of the deposited data

How the results depend on the processing

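The 2502 genes that passed (1078 higher, 1424 lower) became 834 (572 and 262) under median scaling, 1009 (392 and 617) with the normexp correction, 822 (450 and 372) without the filter on dim probes and 1523 (717 and 806) with a 2-fold threshold. With only the 4 arrays compared they were 67 (60 and 7), with array weights 191 (134 and 57), after the spatial correction 6527 (2881 and 3646) and without both arrays marked by the scanner 4847 (2161 and 2686); the cause was not tested. Leaving out 1 array gave 175 to 11823 genes, 114 to 4924 of them higher and 61 to 6899 lower. With the replicate number as a block 1704 passed (768 and 936); the numbers share no stated origin, and same-numbered arrays did not deviate together throughout (correlations from -0.09 to 0.27). Of the 199 named genes that passed, 6 had the opposite sign with normexp: Cfp 0.0172, Atf6 0.0485, Canx 0.41, Ebp 0.23, Sptlc1 0.21 and Degs1 0.39 log2. Medians of 7 lists, taken relative to all genes, changed sign: MAP kinase phosphatases -0.0935, homeostatic genes 0.0252, ribosomal proteins 0.12, oligodendrocyte markers 0.192 and fibroblast markers -0.0634 with normexp; ribosomal proteins 0.00985 with quantile normalization; DNA replication -0.0217 without both marked arrays, -0.0143 after the spatial correction and -0.0217 to 0.338 when 1 array was left out; oligodendrocyte markers 0.0103 without both marked arrays and -0.612 to 0.0103 when 1 array was left out; and lysosome -0.00991 after the spatial correction. Genes near background have no measured level, so folds given as "at least" are limits. Readings under the array's dimmest signal called above background were raised to it, and both control arrays were used unless stated.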

Other observations

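Purine and lipid-sensing receptors moved apart. Of 16 measured genes of this group 3 rose and 4 fell, and 1 fell without either LPS array. Adora2a, the adenosine receptor that restrains macrophages, went from -4.60 and -3.43 in control to -0.64 and -0.71 with LPS (10.1-fold, adjusted p = 0.0061). Gpr84, a receptor of medium-chain fatty acids, rose 3.29-fold and Adora2b 1.86-fold. The adenosine receptor Adora3 fell 2.20-fold (adjusted p = 0.04), and Gpr35 fell 3.67-fold on its main probe, although its probes disagreed in sign. The rise of Adora2a stood beside the falls of Entpd1, which makes AMP from ATP, and of Gpr183.

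Targets of p53 also split. Of 18 measured, 7 rose and 1 fell, and 2 rose without either LPS array. Gadd45a, a growth arrest protein, rose from -2.0 and -1.43 to 1.88 and 1.94, a 12.3-fold rise that passed in each fit without 1 array (adjusted p = 0.002), and Plk2 rose 2.75-fold. Cdkn1a, the cell cycle inhibitor most often used to read p53, fell 1.80-fold (adjusted p = 0.039), and the related inhibitor Cdkn1c fell 3.21-fold. Trp53inp1 rose 2.43-fold, with probes that disagreed in sign. Sphingolipid enzymes changed in 5 of 19 measured cases: Cers4 fell, Sptlc1, of the first step, fell 1.73-fold, Degs1 fell 1.59-fold, and Sgms2, which makes sphingomyelin, rose 2.41-fold with a dimmed spot on control replicate 1 (1.67 log2 after the correction). In the matrix group, Mmp2 was dim in control and rose at least 2.25-fold, while Plau and Plaur, the urokinase and its receptor, fell 2.67-fold and 2.08-fold. Integrins Itga5 and Itgb2 rose 3.43-fold and 2.40-fold (adjusted p = 0.0031 and 0.0057). Of 21 measured integrins and adhesion molecules 2 rose and 1 fell, with a median of -0.07 log2. Their share of 14.3% was near the 11.1% of all genes.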
